A study of Mus musculus with 6 samples.

Results

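Expression of 40 genes of the blood vessel endothelium and of angiogenic signaling was examined in RNA-seq data of IngWAT, the inguinal white adipose tissue, which is a subcutaneous depot of the mouse. The genes were chosen by name as general endothelial, arterial, venous and angiogenic genes without the Notch genes, with earlier results of these data known. All 40 were found among the 34745 genes of the files and passed the filter on low counts. IngWAT of 3 SAKI mice was compared with IngWAT of 3 WT mice, each library from a separate male mouse. SAKI mice carry an LSL-Slc35d3 transgene, which is silent until Cre recombinase removes a stop sequence, together with Cre under the adiponectin promoter, which is active in adipocytes. WT mice carry the Slc35d3 alleles without Cre, and the transgenic line was made on a C57BL/6 background. All mice were put on a normal chow diet (10 kcal% fat) at the age of 6 weeks, kept on it for 10 weeks and were 16 weeks old at the end, and all samples are labelled with PBS perfusion. The endothelium is thus not the cell type at which the transgene is directed, and the question was which vessel genes differ between the genotypes and which do not.

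Endothelial cells line all blood vessels and are held together by adhesion and tight junction proteins, among them PECAM1, VE-cadherin and claudin 5. VEGF-A from surrounding cells, adipocytes included, acts on endothelial KDR and is bound by FLT1, and the angiopoietins act on TEK, a receptor that pairs with TIE1. ETS factors such as ERG and FLI1 and the related SOX7, SOX17 and SOX18 maintain the endothelial program. In adipose tissue the capillary network carries fatty acids, oxygen and hormones to and from the adipocytes.

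Promoters are shown for members that passed the adjusted threshold once the library of WT 2 was left out, as far as a RefSeq window was found: Slco2a1, Cldn5, Rasip1, Flt1 and Tie1, which were then lower in SAKI mice, and Tek and Cd34, which were higher. Each line gives the 250 bases before a RefSeq start site (GRCm38.p6), 5′ to 3′ on the strand of the gene. Capitals mark letters that ETS factors are known to bind (AGGAAG or CGGAAG) and letters that SOX factors are known to bind (ACAAT), on either strand.
Slco2a1, chr9:103008237-103008486, plus strand: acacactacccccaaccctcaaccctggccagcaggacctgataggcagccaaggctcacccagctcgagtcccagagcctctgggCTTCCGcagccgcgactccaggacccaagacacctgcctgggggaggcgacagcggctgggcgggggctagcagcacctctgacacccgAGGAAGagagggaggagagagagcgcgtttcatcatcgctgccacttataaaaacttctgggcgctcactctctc
Cldn5, chr16:18776597-18776846, plus strand: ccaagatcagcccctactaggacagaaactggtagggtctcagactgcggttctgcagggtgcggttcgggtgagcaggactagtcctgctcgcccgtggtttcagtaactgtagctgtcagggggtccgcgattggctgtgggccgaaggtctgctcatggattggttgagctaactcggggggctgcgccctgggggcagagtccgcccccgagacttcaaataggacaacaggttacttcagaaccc
Rasip1, chr7:45627287-45627536, plus strand: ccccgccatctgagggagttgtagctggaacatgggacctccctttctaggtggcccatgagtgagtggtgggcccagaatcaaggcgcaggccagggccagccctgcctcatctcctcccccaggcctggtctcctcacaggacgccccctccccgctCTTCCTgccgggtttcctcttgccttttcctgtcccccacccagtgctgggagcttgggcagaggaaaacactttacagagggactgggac
Flt1, chr5:147726012-147726261, minus strand: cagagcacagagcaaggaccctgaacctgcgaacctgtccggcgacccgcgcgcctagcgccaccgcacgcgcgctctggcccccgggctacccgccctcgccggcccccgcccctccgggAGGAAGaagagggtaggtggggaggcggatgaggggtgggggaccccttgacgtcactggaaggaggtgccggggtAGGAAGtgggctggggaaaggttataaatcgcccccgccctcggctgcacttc
Tie1, chr4:118489850-118490099, minus strand: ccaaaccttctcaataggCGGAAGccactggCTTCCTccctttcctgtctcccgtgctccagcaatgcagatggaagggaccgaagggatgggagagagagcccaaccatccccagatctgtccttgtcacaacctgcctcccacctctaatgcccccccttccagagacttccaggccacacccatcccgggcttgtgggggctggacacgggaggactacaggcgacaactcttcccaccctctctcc
Tek, chr4:94739039-94739288, plus strand: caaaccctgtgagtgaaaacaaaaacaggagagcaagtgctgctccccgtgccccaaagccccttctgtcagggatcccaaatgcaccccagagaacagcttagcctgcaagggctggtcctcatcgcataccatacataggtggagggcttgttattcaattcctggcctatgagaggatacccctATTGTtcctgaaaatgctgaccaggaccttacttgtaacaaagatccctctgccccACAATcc
Cd34, chr1:194938571-194938820, plus strand: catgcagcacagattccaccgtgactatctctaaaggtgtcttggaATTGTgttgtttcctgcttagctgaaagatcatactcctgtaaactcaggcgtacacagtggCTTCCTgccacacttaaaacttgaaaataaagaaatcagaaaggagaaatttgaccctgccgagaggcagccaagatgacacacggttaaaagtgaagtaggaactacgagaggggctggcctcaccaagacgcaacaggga
The windows of Slco2a1, Flt1 and Tie1 hold 2 ETS matches each and that of Rasip1 holds 1, all without a SOX match, and the window of Cldn5 holds neither. The window of Tek holds 2 SOX matches and no ETS match, and that of Cd34 holds 1 of each. A window was found for 23 of the 40 members, 28 windows in all because some genes have several start sites. ETS letters stood in 16 of the 28 windows (57.1%) and in 39.2% of all 32851 windows of this length, and SOX letters stood in 9 (32.1%) and in 27.7% of all. The matches are a description of these letters only. The members shown were picked by the fit without WT 2, a library left out after its values were seen.

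Library totals lay between 15354161 and 18787036 counts, so that each member was counted at least 99 times in every library. Slc35d3 stood at 745 to 793 CPM in SAKI mice, against 73.3 to 82.1 CPM in WT mice (CPM, counts relative to the TMM-scaled library total). This is the direction that the labelled genotypes call for. The library of WT 2 stood apart from the other WT libraries. On the first principal component of all genes the SAKI libraries lay at 21.0 to 29.2 and WT 2 lay beside them at 26.2, while WT 1 and WT 3 lay at -42.0 and -60.3. Mitochondrial genes made up 13.1% to 15.9% of the counts in SAKI mice, 13.8% in WT 2 and 7.31% and 8.78% in WT 1 and WT 3. The counts of members, and the members whose call changes, are therefore given with and without WT 2. No batch or date is given in the labels.

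The vessel genes were moderately lower in SAKI IngWAT as a group of values, but no single member passed the adjusted threshold with all 6 libraries. The log2 fold change, SAKI over WT, was below 0 for 31 of the 40 members and above 0 for 9, with a median of -0.30 against a median of 0.00 over the 15400 genes tested. None of the 40 had an adjusted p under 0.05 from edgeR in either direction, where 0.0130% of all genes tested were called lower and 0.0195% higher. Before adjustment, 15 members had lower and 1 had higher levels in SAKI mice at p under 0.05 from edgeR, against 9.99% and 8.36% of all genes. All 3 SAKI libraries lay below all 3 WT libraries for 17 members and above them for 1, where the same holds for 12.4% and 13.0% of all genes. The share of members on the lower side was thus above that of all genes and the share on the higher side below it. The members were chosen with earlier results of these data known, so this comparison is a description and no independent support. For a single gene an exact permutation test of 3 against 3 cannot go below p = 0.1. In bulk tissue, fewer endothelial cells and less RNA of these genes per cell cannot be told apart.

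**Figure D1:**
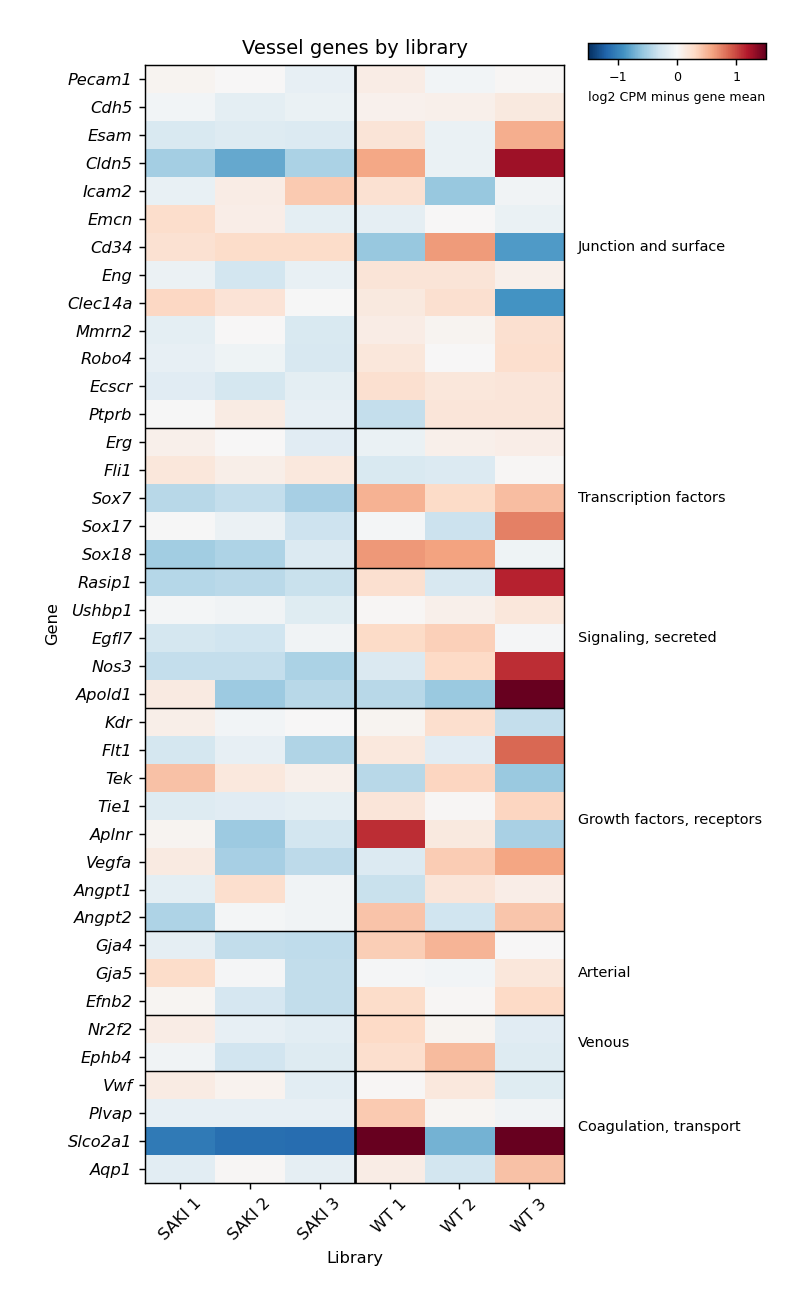
Heat map of the 40 vessel genes (rows, by role) in the 3 SAKI and 3 WT libraries (columns). Color gives the log2 CPM minus the mean of the gene over the 6 libraries, and values past the ends of the color bar take its end color. Most rows are bluer in the SAKI columns, Slco2a1 and Cldn5 most of all, whereas Cd34 and Tek are redder in SAKI mice and in WT 2.

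Leaving out WT 2 changed the calls. WT 2 was singled out from these same data as the WT library nearest the SAKI libraries, so that leaving it out favors calls. Over all genes, edgeR called 5 with all libraries and 2598 without WT 2. The calls without WT 2 are therefore a description and no independent support for a gene. Without it edgeR called 7 members lower (Slco2a1, Cldn5, Sox7, Rasip1, Flt1, Tie1 and Esam) and 2 higher (Cd34 and Tek) in SAKI mice, against 9.14% and 7.41% of the 15693 genes tested in that fit. The share of members was above that of all genes on the lower side and below it on the higher side. This fit rests on 2 WT mice, and the members were chosen with earlier results of these data known. With all 6 libraries DESeq2 called 4 members lower (Sox7, Cldn5, Slco2a1 and Sox18) and 0 higher, against 2.94% and 2.18% of the 14195 genes it tested, and limma-voom called 0. The median over the members was -0.33 without WT 2.

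**Figure D2:**
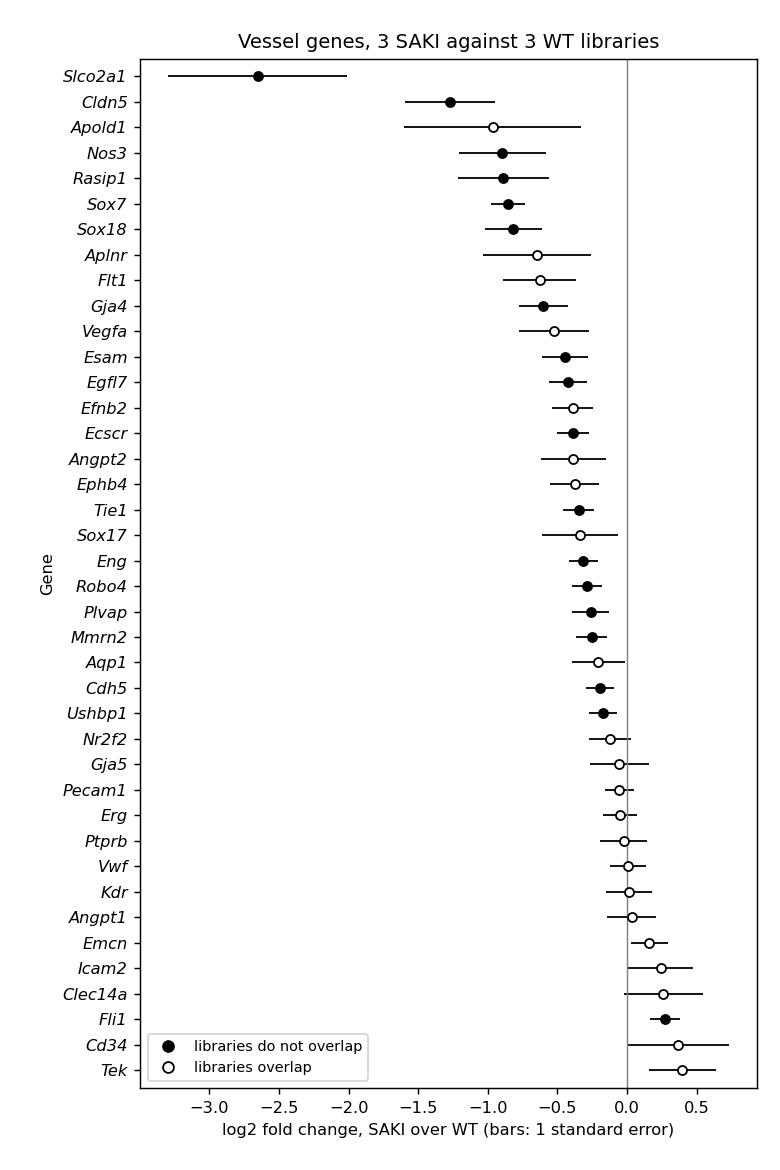
Log2 fold change, SAKI over WT, of each vessel gene from edgeR (x axis), with bars of 1 standard error, ordered from the lowest at the top. Filled circles mark genes whose SAKI and WT libraries do not overlap, 17 to the left of 0 and Fli1 to the right.

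The junction and surface genes separated into members that were lower in every SAKI mouse and members whose libraries overlapped. Of 13 genes, 9 had a log2 fold change below 0. For 7 the SAKI libraries all lay below the WT libraries and for 0 above, beside 12.4% and 13.0% of all genes. Cldn5 encodes claudin 5, a tight junction protein of endothelial cells, and stood at 70.6, 59.0 and 72.3 CPM in SAKI mice 1, 2 and 3, against 150.3, 93.8 and 243 CPM in WT mice 1, 2 and 3. WT 3 was the highest and WT 2 the nearest to the SAKI mice, and the log2 fold change was -1.27 (SE 0.32, adjusted p = 0.173 from edgeR, 0.00473 from DESeq2). Without WT 2 it was -1.54 (SE 0.21, adjusted p = 0.0100 from edgeR). Esam, an adhesion molecule of endothelial tight junctions, had 93.6, 95.5 and 94.9 CPM in SAKI mice, against 125, 103 and 159.6 CPM in WT mice. The SAKI mice were nearly equal and WT 2 lay close above them, giving a log2 fold change of -0.45 (SE 0.16, adjusted p = 0.239 from edgeR), and -0.58 without WT 2 (adjusted p = 0.0288).

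Several surface genes had small differences without overlap between the groups. Ecscr, a surface protein of endothelial cells linked to their migration, had 15.1, 14.2 and 15.4 CPM in SAKI mice, against 20.0, 19.1 and 19.2 CPM in WT mice. Eng, which encodes the TGF-beta co-receptor endoglin, had 129, 114 and 127 CPM in SAKI mice, against 158, 157 and 145 CPM in WT mice. Neither gene overlapped between the groups, WT 2 lay with the other WT mice, and the log2 fold changes were -0.39 (SE 0.12, adjusted p = 0.194 from edgeR) for Ecscr and -0.31 (SE 0.10, adjusted p = 0.210) for Eng. Robo4, a guidance receptor of endothelial cells, had 78.1, 81.8 and 72.2 CPM in SAKI mice, against 95.8, 85.5 and 102 CPM in WT mice (log2 fold change -0.29, SE 0.11). Mmrn2, an extracellular matrix protein that binds CLEC14A and CD93, had 69.5, 77.2 and 65.7 CPM in SAKI mice, against 83.1, 79.3 and 90.9 CPM in WT mice (log2 fold change -0.25, SE 0.11). In both, WT 2 was the lowest WT mouse and SAKI 2 the highest SAKI mouse, so that the groups lay close without overlapping. Cdh5, which encodes VE-cadherin, had 299, 279.6 and 287 CPM in SAKI mice, against 324, 325 and 342 CPM in WT mice. Its log2 fold change was the nearest to 0 among the junction and surface genes that did not overlap, at -0.19 (SE 0.10, adjusted p = 0.338 from edgeR).

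The other surface genes did not separate the groups. Pecam1, a widely used endothelial marker, had 311, 301 and 276 CPM in SAKI mice, against 325, 293 and 304 CPM in WT mice (log2 fold change -0.05, SE 0.11). Ptprb, a phosphatase that acts on TEK and VE-cadherin, had 315, 344 and 291 CPM in SAKI mice, against 248, 359 and 359 CPM in WT mice, and the value of -0.02 (SE 0.17) on the log2 scale changed sign with the processing. The sialomucin Emcn, the adhesion molecule Icam2 and the lectin-like Clec14a had log2 fold changes of 0.16, 0.24 and 0.26 with overlapping groups, and the standard errors lay between 0.13 and 0.29. Cd34, a sialomucin of capillary endothelium that adipose progenitors also express, had 189, 196 and 194 CPM in SAKI mice, against 109, 250.2 and 89.6 CPM in WT mice. WT 2 stood above all SAKI mice and WT 1 and WT 3 well below them, so that the log2 fold change was 0.37 (SE 0.36, adjusted p = 0.609 from edgeR) with all libraries and 0.96 (SE 0.11, adjusted p = 0.00694) without WT 2. Fibroblast and progenitor markers, 7 of 10 above 0, were likewise lowest in WT 1 and WT 3, with a summed level of 11277 to 12563 CPM in SAKI mice, against 6589 in WT 1, 12431 in WT 2 and 4960 in WT 3. Their part in the Cd34 values was not tested.

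Among the 5 transcription factors, Sox7 and Sox18 lay lower in every SAKI mouse and Fli1 higher, while Sox17 and Erg overlapped. Sox7 is a SOX factor of developing and mature endothelium and had 14.5, 15.1 and 13.7 CPM in SAKI mice, against 27.8, 23.7 and 26.8 CPM in WT mice. The groups were wide apart with WT 2 among the WT mice, and Sox7 had the smallest p of all members, with a log2 fold change of -0.85 (SE 0.12, adjusted p = 0.148 from edgeR, 3.05e-05 from DESeq2). Without WT 2 it was -0.92 (SE 0.11, adjusted p = 0.00695 from edgeR). Sox18, which is needed for vascular and lymphatic development, had 29.1, 30.3 and 36.2 CPM in SAKI mice, against 65.4, 63.4 and 39.9 CPM in WT mice. Here WT 3, not WT 2, lay next to the SAKI mice, and the log2 fold change was -0.82 (SE 0.21, adjusted p = 0.172 from edgeR, 0.0162 from DESeq2), and -0.72 without WT 2 (adjusted p = 0.0684 from edgeR). Sox17, a factor of arterial endothelium, had 38.7, 36.5 and 31.2 CPM in SAKI mice, against 38.0, 30.9 and 65.3 CPM in WT mice. Only WT 3 was high, and the log2 fold change of -0.34 (SE 0.27) became 0.04 without WT 3.

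Fli1, an ETS factor, is also expressed in blood cells, and it had 76.1, 72.0 and 76.0 CPM in SAKI mice, against 58.0, 58.9 and 68.6 CPM in WT mice. It was the only member for which every SAKI mouse lay above every WT mouse, with a log2 fold change of 0.27 (SE 0.10, adjusted p = 0.248 from edgeR). Macrophage markers were above 0 for 10 of 10 genes. Their summed levels were 2417 to 2902 CPM in SAKI mice, against 1240, 2358 and 1005 CPM in WT mice 1, 2 and 3. Their part in Fli1 was not tested. Erg, the other ETS factor of the list, which is largely restricted to endothelium in adult tissues, had 32.4, 30.8 and 27.3 CPM in SAKI mice, against 28.5, 32.4 and 32.7 CPM in WT mice. The groups overlapped fully, with a log2 fold change of -0.05 (SE 0.12).

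All 5 genes of endothelial signaling and secreted factors had log2 fold changes below 0, with a median of -0.89, and for several of them WT 3 was far above the rest. Rasip1, which is needed for vessel lumen formation, had 59.6, 60.8 and 63.8 CPM in SAKI mice, against 94.6, 68.1 and 178 CPM in WT mice. WT 2 lay just above the SAKI mice, and the log2 fold change was -0.89 (SE 0.33, adjusted p = 0.238 from edgeR) with all libraries and -1.15 (adjusted p = 0.0301) without WT 2. Nos3, which encodes endothelial nitric oxide synthase, had 39.7, 39.7 and 36.4 CPM in SAKI mice, against 43.5, 62.5 and 109 CPM in WT mice. WT 1 lay just above the SAKI mice, and the log2 fold change was -0.90 (SE 0.31, adjusted p = 0.224 from edgeR). Of the exon bases of Rasip1 and Nos3, 42.9% and 32.3% are shared with neighboring or antisense genes in the GENCODE annotation, and reads of these genes cannot be told apart because the strand setting of the counting was not given in the sources used here. Among the other members the largest shared parts were 16.8% for Sox17, 14.2% for Angpt1 and 11.2% for Egfl7, with the same limit.

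Egfl7, a secreted factor of endothelial cells and the host gene of miR-126, had 61.1, 59.6 and 70.6 CPM in SAKI mice, against 90.0, 94.0 and 72.5 CPM in WT mice. As for Sox18, WT 3 lay next to SAKI 3, and the log2 fold change was -0.42 (SE 0.13, adjusted p = 0.208 from edgeR). Ushbp1, an endothelial gene of little known function, had 94.6, 93.3 and 84.9 CPM in SAKI mice, against 97.1, 101 and 109 CPM in WT mice (log2 fold change -0.17, SE 0.10). Apold1, an immediate early gene of endothelial cells, had 26.9, 16.8 and 18.5 CPM in SAKI mice, against 18.4, 16.7 and 86.3 CPM in WT mice. WT 3 alone was high, and the log2 fold change of -0.96 (SE 0.64, adjusted p = 0.444 from edgeR) became 0.24 without WT 3. A list of 12 immediate early genes, 11 of them below 0, was also highest in WT 3, with summed levels of 390 to 516 CPM in SAKI mice, against 482, 589 and 867 CPM in WT 1, WT 2 and WT 3, and its part in the values of Apold1, Nos3 and Rasip1 was not tested.

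**Figure D3:**
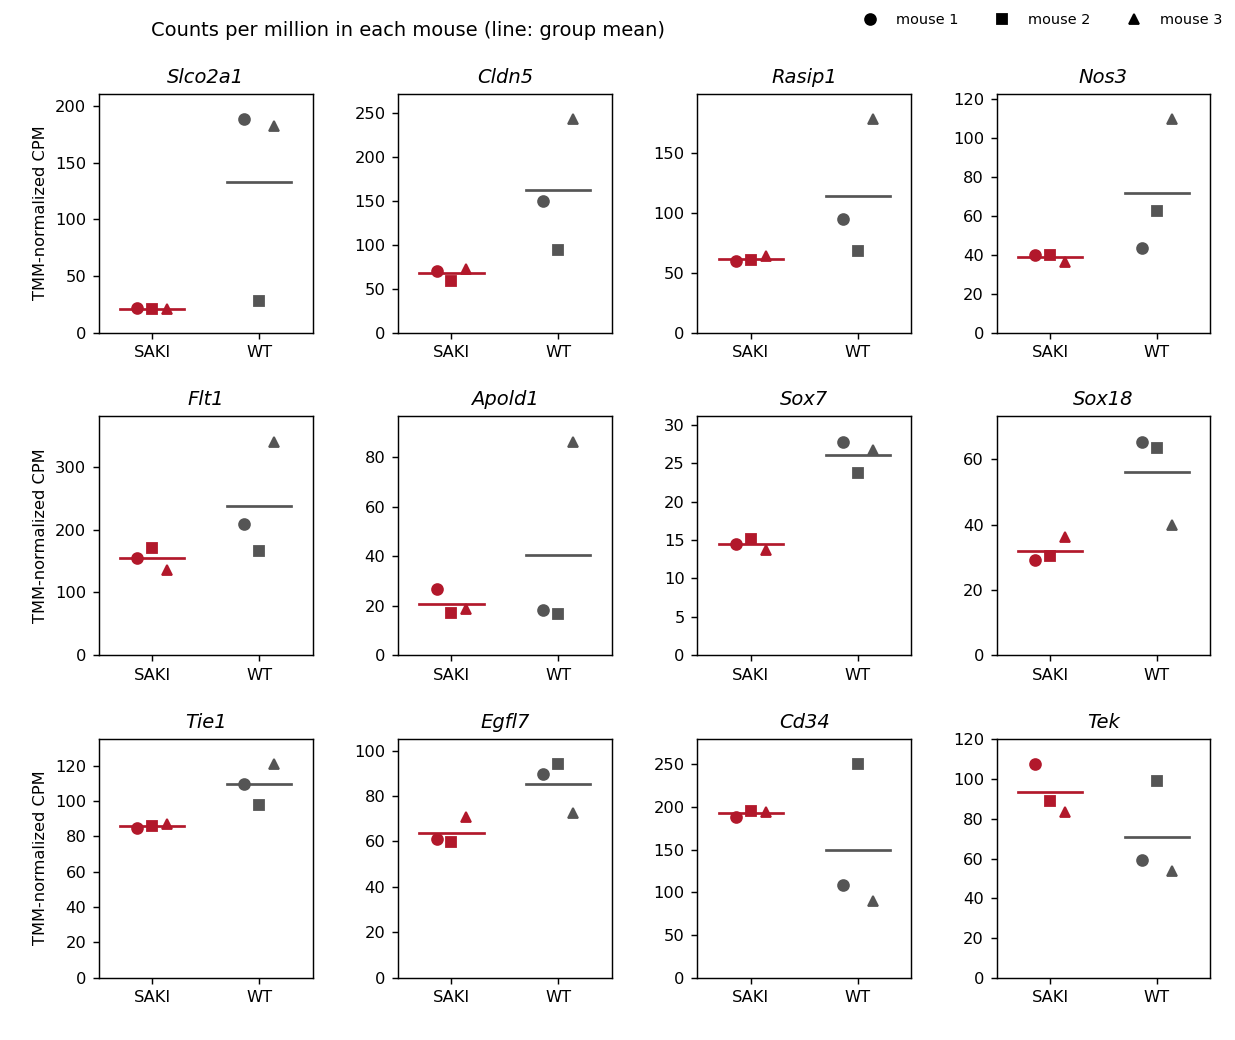
TMM-normalized CPM of 12 vessel genes in each mouse (y axis from 0), SAKI left of WT, with the group mean as a line and the mouse number as the symbol. SAKI mice lie close together in most panels, while WT 2 (square) lies near them for Slco2a1, Rasip1 and Flt1, WT 3 (triangle) for Sox18 and Egfl7, and WT 1 (circle) for Nos3.

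The growth factor receptors did not share a direction. Flt1, the decoy-like VEGF receptor, had 155, 172 and 136 CPM in SAKI mice, against 209, 166 and 341 CPM in WT mice. WT 2 lay within the SAKI range, and the log2 fold change was -0.63 (SE 0.26, adjusted p = 0.268 from edgeR) with all libraries and -0.83 (SE 0.22, adjusted p = 0.0473) without WT 2. Kdr, the main signaling receptor for VEGF-A, had 213, 194 and 201 CPM in SAKI mice, against 206, 239 and 156 CPM in WT mice. The SAKI mice lay inside the WT range, with a log2 fold change of 0.02 (SE 0.16). Tie1 had 84.8, 85.9 and 87.2 CPM in SAKI mice, against 109.6, 97.8 and 121 CPM in WT mice. All WT mice were above all SAKI mice, and the log2 fold change was -0.35 (SE 0.11, adjusted p = 0.205 from edgeR) and, without WT 2, -0.42 (SE 0.09, adjusted p = 0.0302). Tek, the angiopoietin receptor that pairs with TIE1, went the other way and had 107, 88.9 and 83.6 CPM in SAKI mice, against 59.4, 99.2 and 53.9 CPM in WT mice. WT 2 lay within the SAKI range as for Flt1, and the log2 fold change was 0.40 (SE 0.24, adjusted p = 0.409 from edgeR) with all libraries and 0.72 (SE 0.14, adjusted p = 0.0211) without WT 2. Aplnr, the apelin receptor, had 28.0, 18.6 and 22.5 CPM in SAKI mice, against 58.4, 30.2 and 19.4 CPM in WT mice. WT 1 was high and WT 3 lay among the SAKI mice, for a log2 fold change of -0.65 (SE 0.39).

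None of the 3 growth factors separated the groups. Vegfa, which adipocytes and other non-endothelial cells also make, had 250.5, 161 and 174 CPM in SAKI mice, against 198, 298 and 346 CPM in WT mice. SAKI 1 lay between the WT mice, and the log2 fold change was -0.52 (SE 0.25, adjusted p = 0.312 from edgeR). Angpt2, the context-dependent TEK ligand made by endothelium, had 11.0, 14.8 and 14.6 CPM in SAKI mice, against 20.3, 12.3 and 20.2 CPM in WT mice, with WT 2 inside the SAKI range (log2 fold change -0.39, SE 0.24). Angpt1, the activating TEK ligand made by mural and other stromal cells, had 29.2, 38.5 and 31.1 CPM in SAKI mice, against 25.6, 36.4 and 34.4 CPM in WT mice, with overlapping groups (log2 fold change 0.03, SE 0.18).

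**Figure D4:**
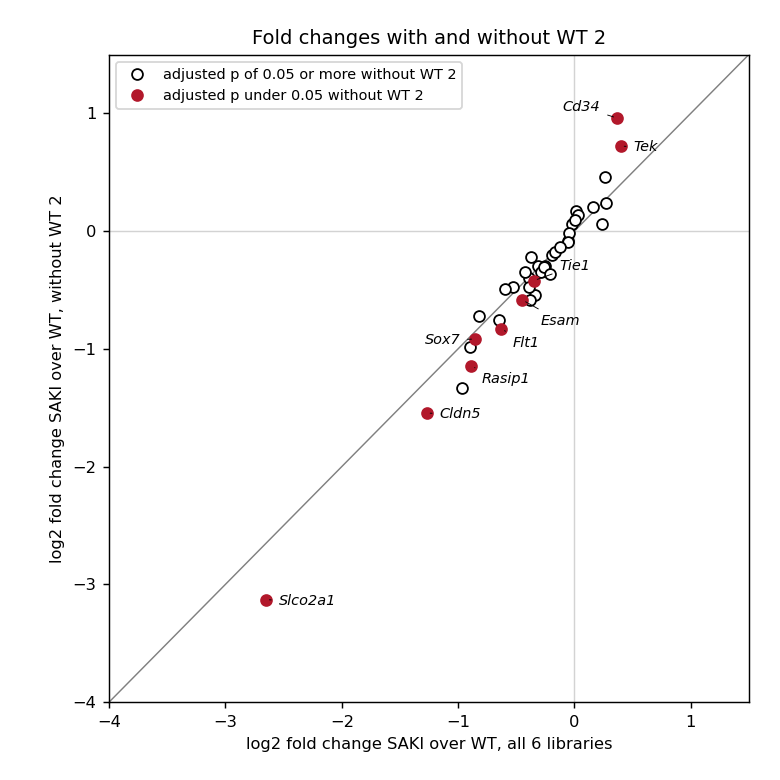
Log2 fold change, SAKI over WT, of the 40 vessel genes from edgeR with all 6 libraries (x axis) and without WT 2 (y axis), where the diagonal marks equal values. Filled points are the 9 genes with an adjusted p under 0.05 without WT 2, 7 below 0 and 2 above, and they lie farther from 0 than with all libraries.

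The arterial and venous genes were few and mostly low in abundance. Gja4, which encodes the arterial gap junction protein connexin 37, had 11.1, 9.44 and 9.30 CPM in SAKI mice, against 15.7, 17.2 and 12.2 CPM in WT mice. The groups did not overlap, and WT 3 lay nearest the SAKI mice, for a log2 fold change of -0.60 (SE 0.18, adjusted p = 0.192 from edgeR). Efnb2, the arterial ephrin ligand, had 28.2, 23.3 and 21.3 CPM in SAKI mice, against 33.5, 28.0 and 33.9 CPM in WT mice (log2 fold change -0.39, SE 0.15, adjusted p = 0.242 from edgeR). SAKI 1 lay just above WT 2, and this pair of mice alone made the groups overlap. Gja5, which encodes connexin 40, had 7.95, 6.53 and 5.12 CPM in SAKI mice, against 6.50, 6.42 and 7.40 CPM in WT mice and did not separate the groups (log2 fold change -0.05, SE 0.21). Ephb4, the venous receptor of ephrin B2, had 64.3, 54.5 and 58.5 CPM in SAKI mice, against 79.3, 92.5 and 58.2 CPM in WT mice (log2 fold change -0.38, SE 0.18). WT 3 lay among the SAKI mice as it did for Aplnr. Nr2f2, a nuclear receptor that sets venous identity and is also expressed in stroma, had 38.9, 33.2 and 32.4 CPM in SAKI mice, against 44.5, 37.2 and 32.1 CPM in WT mice, with overlap (log2 fold change -0.12, SE 0.15).

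Slco2a1 had the largest difference of the 40 members. It encodes the prostaglandin transporter, which takes up prostaglandins from the extracellular space, and is expressed in endothelium and in other cell types. Its level was 21.8, 20.8 and 20.7 CPM in SAKI mice, against 189, 27.8 and 182 CPM in WT mice. WT 1 and WT 3 were far above, and WT 2 lay above the SAKI mice by a small margin, so that the mean in SAKI mice was 0.159 of the mean in WT mice, a ratio that rested on WT 1 and WT 3. The log2 fold change was -2.65 (SE 0.64, adjusted p = 0.170 from edgeR, 0.0149 from DESeq2), and without WT 2 it was -3.13 (SE 0.09, adjusted p = 0.000218 from edgeR). Plvap, which forms the diaphragms of fenestrae and caveolae, had 93.6, 93.4 and 94.1 CPM in SAKI mice, against 134, 104 and 98.5 CPM in WT mice. SAKI mice were almost equal and WT 3 lay just above them, with a log2 fold change of -0.26 (SE 0.14, adjusted p = 0.342 from edgeR). Aqp1, a water channel of endothelium and red cells, had 675, 767 and 689 CPM in SAKI mice, against 815, 623 and 1019 CPM in WT mice. It overlapped through WT 2, the lowest of all mice (log2 fold change -0.21, SE 0.19). Vwf, the platelet adhesion factor stored in endothelium, overlapped fully with a log2 fold change of 0.01 (SE 0.13) that changed sign with the scaling.

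Levels per length of transcript, the deposited FPKM values, placed Aqp1 first among the members, at a mean of 272 FPKM in SAKI mice and 309 FPKM in WT mice. In SAKI mice Cdh5 came next at 72.9 FPKM, then Cldn5 at 47.9 and Plvap at 46.8, whereas in WT mice Cldn5 came next at 113 FPKM, then Cdh5 at 82.1 and Plvap at 55.6. The SD of Cldn5 in WT mice was 50.0 FPKM, so that Cldn5 and Cdh5 did not differ beyond their spread there. Gja5 was the lowest member in both groups, at 0.922 FPKM in SAKI mice and 0.943 FPKM in WT mice. Slco2a1 stood at 1.40 ± 0.018 FPKM in SAKI mice and at 8.73 ± 6.08 FPKM in WT mice (SD, n = 3 each).

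The SAKI mice were more alike than the WT mice in the vessel genes, as in all genes. The median coefficient of variation of the members was 8.51% in SAKI mice and 18.9% in WT mice, beside 9.33% and 18.8% over all genes tested. It was larger in WT mice for 30 of the 40 members, beside 12026 of the 15400 genes tested. The WT mouse with the highest level was WT 3 for 18 members, WT 1 for 11 and WT 2 for 11, beside 5362, 4751 and 5287 of all genes. Thus no single WT library was high for all vessel genes.

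On a scale relative to general endothelial genes, 3 members were lower and 3 higher in every SAKI mouse. The mean log2 CPM of 6 members found in all endothelium (Pecam1, Cdh5, Esam, Cldn5, Tie1 and Erg) was 6.73 ± 0.04 in SAKI mice and 7.10 ± 0.21 in WT mice (SD, n = 3 each), a difference of -0.37. Without Cldn5, an alternative chosen after seeing the data, the mean of the other 5 genes was 6.86 ± 0.04 in SAKI mice and 7.07 ± 0.11 in WT mice, a difference of -0.21. With each member expressed relative to the 6-gene mean, leaving a gene out of its own reference, 3 members were lower in every SAKI mouse, namely Slco2a1 by a log2 difference of -1.85, Cldn5 by -0.96 and Sox7 by -0.48. Another 3 were higher in every SAKI mouse, Fli1 by 0.65, Emcn by 0.53 and Pecam1 by 0.38. On this scale 1.84% of all genes tested were lower and 40.5% higher in every SAKI mouse. The reference is a mean of members that was itself lower in SAKI mice, which raises other genes on this scale. The shares of members and of all genes can therefore not be compared here. Kdr and Emcn, with log2 fold changes of 0.02 and 0.16, were not part of the mean. Against the mean without Cldn5 the differences were -2.01 for Slco2a1, -0.96 for Cldn5, -0.64 for Sox7, 0.49 for Fli1, 0.37 for Emcn and 0.20 for Pecam1, none of these overlapped, and Tie1 was also lower in every SAKI mouse, by -0.16. The values are a description without a test, and they rest in part on WT 2, since without it 5 members were lower and 15 higher relative to the 6-gene mean, beside 5.32% and 63.7% of all genes.

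Other genes of the angiogenic pathways were also mostly below 0. Of 20 genes listed, 18 were tested, of which 15 had log2 fold changes below 0 and 3 above, with a median of -0.39. Before adjustment, 7 lay lower and 0 higher at p under 0.05 from edgeR, beside 9.99% and 8.36% of all genes, and without WT 2 edgeR called 9 lower and 0 higher at adjusted p, beside 9.14% and 7.41%. Pdgfb, by which endothelium recruits pericytes, had 45.2, 41.8 and 38.8 CPM in SAKI mice, against 59.6, 63.0 and 57.9 CPM in WT mice (log2 fold change -0.52, SE 0.10, adjusted p = 0.148 from edgeR, and 0.0271 without WT 2). The WT mice were alike, WT 2 included. Thbs1, an inhibitor of angiogenesis, had 60.0, 55.2 and 65.3 CPM in SAKI mice, against 372, 109.7 and 470.2 CPM in WT mice (log2 fold change -2.40, SE 0.48, adjusted p = 0.153 from edgeR, and 0.00109 without WT 2). Vegfb, a ligand of FLT1, had 52.3, 56.3 and 49.9 CPM in SAKI mice, against 80.7, 67.0 and 94.0 CPM in WT mice (log2 fold change -0.61, SE 0.14, adjusted p = 0.166 from edgeR, and 0.0129 without WT 2). In both, WT 2 was the lowest WT mouse, as for Slco2a1 and Rasip1.

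A further 22 endothelial genes outside the 40 had log2 fold changes below 0 in 14 and above 0 in 8 cases, with a median log2 fold change of -0.15, and 5 lay lower and 1 higher in SAKI mice without overlap, beside 12.4% and 13.0% of all genes. The smallest p in this list belonged to Grrp1, an endothelial gene of poorly known function, with a log2 fold change of -1.13 (SE 0.33, adjusted p = 0.188 from edgeR, and 0.0364 without WT 2). Sox13, a SOX factor outside the SOX7, SOX17 and SOX18 subgroup, had -0.47 (SE 0.16), and Gpr182, a receptor of the vascular and lymphatic endothelium, had -0.31 (SE 0.12). A list of 10 genes of adipose capillary endothelium and its lipid uptake had 5 genes below 0 and 5 above, with a median of -0.02 and no gene without overlap. Of these 10, Tcf15 and Rgcc lay lower and 0 higher before adjustment at p under 0.05 from edgeR, beside 9.99% and 8.36% of all genes. At adjusted p without WT 2 the same 2 lay lower and 0 higher, beside 9.14% and 7.41%.

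Markers of other cell types also differed in level. No gene of the lists in this paragraph passed the adjusted threshold with all 6 libraries. Mural cell markers (pericytes and smooth muscle) were below 0 for 11 of 12 genes, with summed levels of 1110 to 1334 CPM in SAKI mice, against 1504 to 1754 CPM in WT mice. Adipocyte markers were below 0 for 13 of 13 genes, with sums of 26760 to 30354 CPM in SAKI mice, against 31083 to 39640 CPM in WT mice. Red cell genes were lower in every SAKI mouse for all 5 genes tested, beside 12.4% of all genes, and Slc4a1 did not pass the filter. The red cell sums were 89.1 to 92.7 CPM in SAKI mice, against 181 to 442 CPM in WT mice. These 3 sums did not overlap between the groups, and WT 2 lay with the WT mice in each. For the adipocyte sum the margin was small, with SAKI 1 at 30354 CPM and WT 1 at 31083 CPM. B cell markers, which can come from the lymph node of this depot, were above 0 for 8 of 8 genes, with sums of 665 to 804 CPM in SAKI mice, against 433 to 775 CPM in WT mice, and skeletal muscle markers ranged from 373 to 2585 CPM in SAKI mice and from 488 to 5318 CPM in WT mice. The part of these cells in the vessel gene values was not tested.

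**Figure D5:**
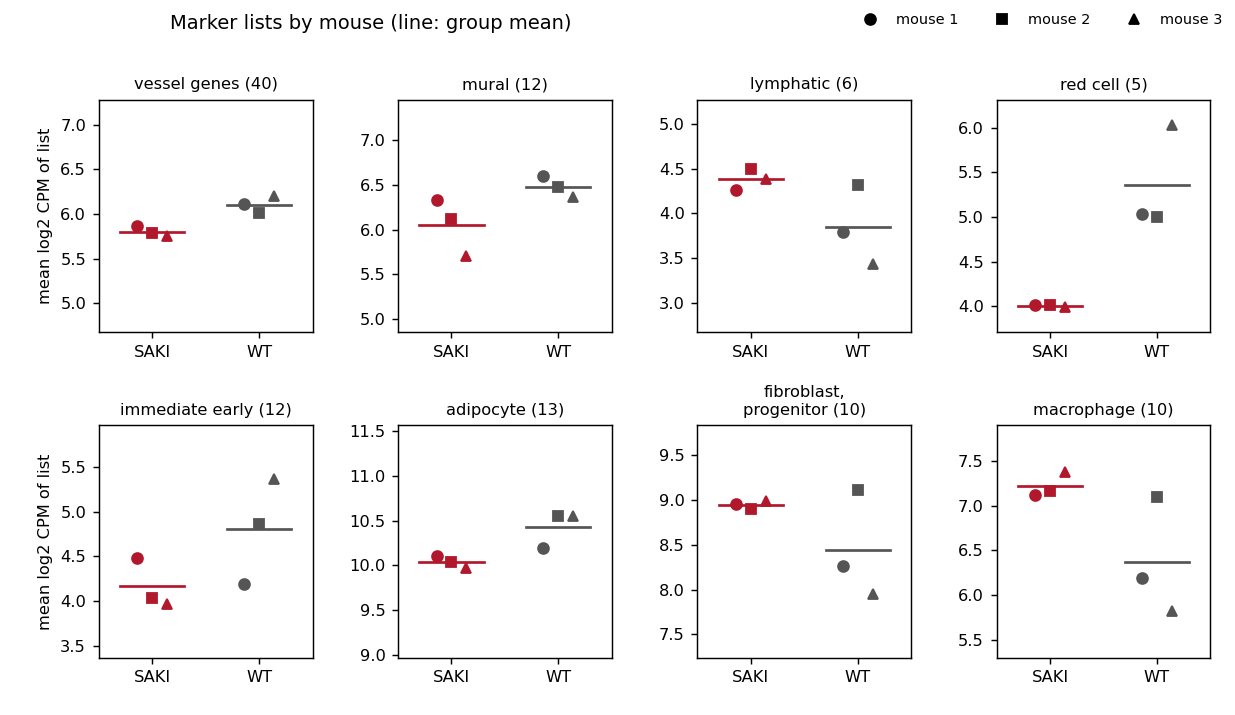
Mean log2 CPM of the 40 vessel genes and of 7 marker lists in each mouse (number of genes tested in parentheses), SAKI left of WT, with the group mean as a line. All panels span the same number of log2 units. The vessel, mural, red cell and adipocyte lists are lower in every SAKI mouse, whereas the lymphatic, fibroblast and macrophage lists are lowest in WT 1 and WT 3.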

How the data were processed

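Poly(A) RNA-seq was performed on IngWAT of 3 SAKI and 3 WT mice, grouped by the sample labels. The labels name an RNA isolation kit and the methods name Trizol. Whole-number gene counts, 1 file a library, and 1 table of FPKM values were deposited by the authors, and the FPKM values proved to be these counts divided by gene length and library total. GRCm38, StringTie 1.3.0, HISAT2 2.0.4 and Bowtie2 2.2.6 stand in the processing notes of the submitters without a role for each. How reads were counted, and with which strand setting, is not given in the sources used here, and 12 of the 40 members share exon bases with another gene.

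Counts of all genes were analysed in edgeR 4.0.16 (R 4.3.3) with filterByExpr (minimum count 10, minimum total 15), TMM scaling, genotype as the only term and the two-sided quasi-likelihood test. The p-values were adjusted by Benjamini-Hochberg over all 15400 genes tested, with a threshold of 0.05. The SE of a log2 fold change from edgeR was derived from the test, as its absolute value over the square root of the F statistic. The alternatives used RLE or upper-quartile scaling, DESeq2 1.42.0, limma-voom (limma 3.58.1), no filter or a mean of at least 5 CPM, a B cell score as covariate, a replicate block, leaving out every library in turn, and limma on log2(FPKM + 1) or log2(FPKM + 0.1) for genes of at least 1 FPKM in 3 libraries or with no filter. The steps were tested on simulated data. Replicate numbers did not pair the mice (correlations of 0.0249, 0.0325 and 0.0948 between same-numbered mice). No library pair was alike within sampling noise. The members and gene lists were chosen with earlier results of these data known. Members were given per mouse where they had the smallest p of a role group, an unadjusted p under 0.05 or no overlap, or were growth factors or receptors, and up to 3 genes of smallest p in the lists outside the 40. Pecam1, Ptprb, Cd34, Sox17, Apold1 and Vwf were named after their values were seen, and so were the lymphatic and mural genes. Median library depth was 15732636 counts.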

Additional observations from a re-analysis of the deposited data

How the results depend on the processing

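Of the 40 members, 29 kept 1 sign of the log2 fold change in all alternatives and 11 changed it in some, the largest of these being Apold1. With DESeq2, 4 members were lower at adjusted p and 0 were higher at an unadjusted p under 0.05 (all genes: 2.94% and 7.47%), and with the B cell score as a covariate 2 were lower at adjusted p (Sox7 and Slco2a1) and 2 were higher at an unadjusted p (2.55% and 14.5%). The same-numbered mice are not paired by the labels or by the data. With a replicate block, 0 members were called at adjusted p, 12 lay lower and 0 lay higher at p under 0.05 before adjustment (7.40% and 7.25% of all genes), and the median was -0.27. When each library was left out in turn, 0 to 7 members were lower and 0 to 2 higher at adjusted p, 9 to 18 lay lower and 0 to 2 lay higher at p under 0.05 before adjustment (5.31% to 18.1% and 3.96% to 17.0% of all genes), and 17 to 21 were lower and 1 to 3 higher in every library (15.5% to 26.5% and 15.9% to 26.3%). The highest of each came without WT 2, and 0 members were called when any other library was left out. Fits without a library keep 2 mice in that group.

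Signs changed for Vwf with RLE scaling (-0.0018) and DESeq2 (-0.0020), for Icam2 (-0.018) and Erg (0.013) with the B cell score, and for Ptprb with upper-quartile scaling (0.015), a mean of at least 5 CPM (0.0033), the B cell score (0.12), log2(FPKM + 1) with and without the filter (0.016) and log2(FPKM + 0.1) (0.017). With 1 library left out, the log2 fold change ranged from -0.12 to 0.14 for Angpt1, -1.34 to 0.24 for Apold1, -0.019 to 0.46 for Clec14a, -0.12 to 0.019 for Erg, -0.24 to 0.10 for Gja5, -0.13 to 0.17 for Kdr, -0.23 to 0.0046 for Nr2f2, -0.18 to 0.064 for Ptprb, -0.54 to 0.040 for Sox17 and -0.077 to 0.093 for Vwf. The causes were not tested. With 3 mice a group and the spread among WT mice, small differences were not detectable here.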

Other observations

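Lymphatic endothelium takes up fluid and lipid from the tissue. Of 6 lymphatic genes tested, 4 had log2 fold changes above 0 and 2 below, with a median of 0.63, and their summed level was 225 to 248 CPM in SAKI mice, against 119, 252 and 95.5 CPM in WT mice 1, 2 and 3, so that the groups overlapped through WT 2. Lyve1, which macrophages also express, made up 157 to 170 CPM of the sum in SAKI mice, against 48.4, 181 and 44.6 CPM in WT mice. No gene of the list passed the adjusted threshold with all 6 libraries, and 3 lay higher and 0 lower before adjustment at p under 0.05 from edgeR, beside 8.36% and 9.99% of all genes. Without WT 2, edgeR called 4 higher and 0 lower at adjusted p, beside 7.41% and 9.14%. Ccl21a and Nts did not pass the filter on low counts. The genes named here were picked after their values were seen. Prox1, the master regulator of lymphatic identity, had 9.26, 10.1 and 10.5 CPM in SAKI mice, against 6.57, 6.81 and 4.71 CPM in WT mice (log2 fold change 0.72, SE 0.19, adjusted p = 0.180 from edgeR, and 0.0396 without WT 2). Mmrn1, a lymphatic matrix protein, had 14.4, 18.5 and 15.3 CPM in SAKI mice, against 4.85, 10.5 and 4.45 CPM in WT mice (log2 fold change 1.28, SE 0.34, adjusted p = 0.180 from edgeR). All SAKI mice lay above all WT mice for both. Flt4, the VEGF-C receptor of lymphatic endothelium, had 23.4, 22.6 and 19.6 CPM in SAKI mice, against 35.2, 24.4 and 25.8 CPM in WT mice (log2 fold change -0.38, SE 0.17).

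Genes of high endothelial venules, the vessels through which lymphocytes enter lymph nodes, were above 0 for 4 of 5 genes, and all 4 lay higher in every SAKI mouse without overlap, beside 13.0% of all genes. The 5 genes summed to 90.0 to 108 CPM in SAKI mice, against 32.9 to 53.3 CPM in WT mice, most of it Glycam1. Chst4, Madcam1 and Fut7 were low, between 0.430 and 4.07 CPM in all mice. Ackr1 overlapped between the groups, with a log2 fold change of -0.26 (SE 0.20). Glycam1, a mucin ligand of L-selectin, had 73.8, 75.5 and 86.9 CPM in SAKI mice, against 18.3, 38.5 and 21.5 CPM in WT mice (log2 fold change 1.59, SE 0.27, adjusted p = 0.148 from edgeR, and 0.00192 without WT 2). The summed level of the B cell markers, with 8 of 8 genes above 0, overlapped between the groups. Of these 8, 2 (Blk and Fcer2a) lay higher in every SAKI mouse and 0 lower, beside 13.0% and 12.4% of all genes. The amount of lymph node in each sample was not measured.

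Mural cell genes were below 0 in 11 of 12 cases, as the blood vessel genes mostly were. The mural genes named here were picked after their values were seen. Mcam, an adhesion molecule of pericytes and endothelium, had 143, 138 and 131 CPM in SAKI mice, against 227, 224 and 207 CPM in WT mice (log2 fold change -0.67, SE 0.10, adjusted p = 0.148 from edgeR, and 0.0113 without WT 2). Pdgfrb, the receptor of PDGF-B on pericytes, had 119, 97.2 and 109 CPM in SAKI mice, against 213, 137 and 165 CPM in WT mice (log2 fold change -0.66, SE 0.18, adjusted p = 0.180 from edgeR). WT 2 lay with the other WT mice for Mcam and was the lowest of them for Pdgfrb. Cspg4, with a smaller p than Pdgfrb, had a log2 fold change of -0.69 (SE 0.15, adjusted p = 0.163 from edgeR) without overlap. Rgs5, a pericyte regulator of G protein signaling, had 360, 436 and 348 CPM in SAKI mice, against 359, 387 and 421 CPM in WT mice, and did not separate the groups (log2 fold change -0.03, SE 0.13).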
